A study of Homo sapiens with 18 samples.

Results

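Intermediate filaments are rope-like cytoskeletal fibers that give animal cells mechanical strength. The members described here are 10 of the 32490 gene names in the deposited table: the type II keratins KRT80, KRT8 and KRT7, the type I keratin KRT18, the type III proteins VIM (vimentin) and GFAP (glial fibrillary acidic protein), NES (nestin) and SYNM (synemin), and the nuclear lamins LMNA and LMNB1. They were selected by name with KRT80 at the head, after its levels in these libraries were already known, so the values of KRT80 are given as a description and carry no test. Keratins form obligate pairs of a type I and a type II chain and are typical of epithelia, where desmosomes anchor them. Vimentin is the usual filament of mesenchymal and many cultured tumor cells, nestin marks neural progenitors, and GFAP is the classical filament of astrocytes. Lamins line the inner face of the nuclear envelope.

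RNA came from spheroidal aggregates of 2 established human lines, U87 mg, a glioblastoma model, and DAOY, a desmoplastic cerebellar medulloblastoma model, neither of which carries a labelled transgene or drug. Aggregates sat in a gel of medium and growth-factor-reduced Matrigel in an electrotaxis channel for a day, and then met a direct-current electrical field (dcEF) whose strength was 250 V/m, lasting 0, 2 or 8 h. Each of the 6 conditions had 3 libraries, each from 3 pooled channels, so p-values measure the spread between such pools of a single line. Unexposed aggregates kept for 2 or 8 h longer were not analysed here, so field and time in the channel cannot be told apart. Estimated counts summed to between 8341976 and 15610886 per library. Levels are in TPM (a share of all transcripts, corrected for transcript length) and, being from bulk RNA, cannot separate fewer expressing cells from less RNA per cell.

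The labelled origins were only partly visible in marker genes. Of the glial markers, U87 mg at 0 h held SLC1A3, a glial glutamate transporter, at 42.6 ± 9.07 TPM (SD, n = 3). In the same U87 mg libraries at 0 h, AQP4 had 0 counts and SOX2 reached at most 1 count. In DAOY minus U87 mg at 0 h, SOX2 was higher (log2 difference 7.35 ± 0.63, SE, edgeR FDR = 2.32e-08). ALDH1L1 was also higher (2.13 ± 0.52, edgeR FDR = 0.00176). SLC1A3 (-2.43 ± 0.27, edgeR FDR = 5.39e-07) and SLC1A2 (-2.09 ± 0.51, edgeR FDR = 0.00181) were lower. OLIG2 was not called (0.12 ± 0.57). SOX2 and ALDH1L1 passed the low-count filter only through DAOY and SLC1A2 only through U87 mg, so these had to differ. DAOY at 0 h held the cerebellar factor ZIC1 at 12.6 ± 2.57 TPM, beside 8.85 ± 2.81 TPM in U87 mg, and the medulloblastoma factor OTX2 at 1.97 ± 0.148 TPM (n = 3 each), while OTX2 had 0 counts in all U87 mg libraries. NEUROD1 and EOMES, later neuronal factors, reached at most 3 and 5 counts in any DAOY library.

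The sequences that separate the protein forms of KRT80 are shown first, because the isoform assignment below rests on them. KRT80 lies at chr12:52168996-52192000 on the minus strand (GRCh38, GENCODE 29), and it has 2 main coding transcripts of 9 exons each, called here the short and the long form after their proteins of 422 and 452 residues. In the direction of transcription, the 30 bases that end exon 8 (chr12:52171658-52171687) are followed in the short form by 35 bases (chr12:52171523-52171557, capitals) that the long form lacks and that end in the stop codon of the short form. The long form joins exon 8 directly to the bases after them (chr12:52171488-52171522), and reads on to a longer tail.
Short form: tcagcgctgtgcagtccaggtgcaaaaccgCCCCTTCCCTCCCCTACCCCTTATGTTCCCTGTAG
Long form: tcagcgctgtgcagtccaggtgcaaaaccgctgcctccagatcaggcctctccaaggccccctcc
The shared lower-case start and the capitals show that the transcripts differ by this single stretch. A single-end read has to touch these 35 bases, or the junction that skips them, to tell the transcripts apart.

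KRT80, an atypical type II keratin of differentiating epithelia, was the highest of the 4 member keratins in U87 mg and the lowest in DAOY. In U87 mg at 0 h its level was 13.9, 21.8 and 19.2 TPM in replicates 0, 1 and 2. After 2 h it was 14.1, 15.6 and 15.6 TPM, and after 8 h 18.9, 18.1 and 14.8 TPM. All 3 conditions overlapped. In DAOY at 0 h the level was 0.124, 0.322 and 0.368 TPM, from 3, 9 and 8 counts. It was 0.597, 0.608 and 0.588 TPM after 2 h, from 14, 14 and 12 counts, and 1.06, 1.04 and 1.63 TPM after 8 h, from 28, 24 and 39 counts. Both exposed groups of DAOY lay above all 0 h libraries, and all 8 h libraries lay above all 2 h libraries. Among all genes with a level above 0, KRT80 stood at rank 6635 of 25374 in U87 mg at 0 h and at rank 19891 of 26084 in DAOY at 0 h.

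**Figure D1:**
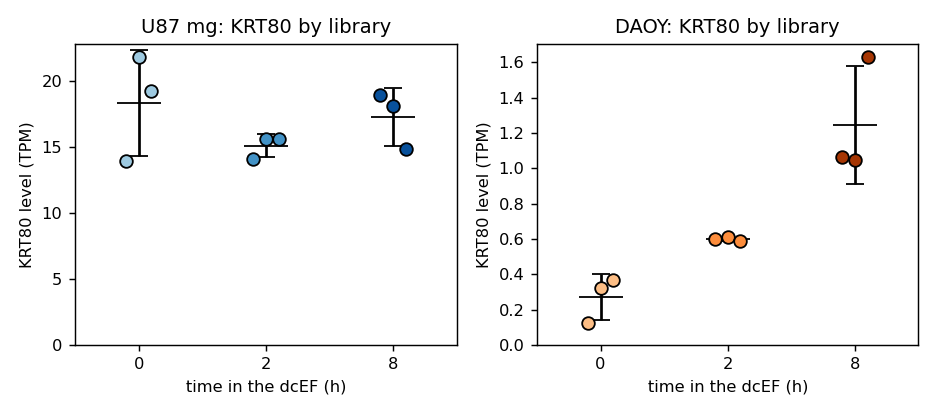
KRT80 level in TPM (vertical axis, from 0, with a separate scale for each line) against the time in the dcEF. Each point is a library, the horizontal bar is the mean and the error bar 1 SD of 3 libraries. In DAOY the 8 h libraries lie between 1.04 and 1.63 TPM and the 0 h libraries between 0.124 and 0.368 TPM, while in U87 mg all 9 libraries lie between 13.9 and 21.8 TPM.

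On the fitted count scale, the log2 fold change of KRT80 in DAOY was 1.09 ± 0.42 (SE, n = 3 and 3) at 2 h and 2.26 ± 0.40 at 8 h, the latter a 4.79-fold difference. In U87 mg it was -0.30 ± 0.16 at 2 h and -0.01 ± 0.16 at 8 h. The 8 h change in DAOY minus that in U87 mg was 2.27 ± 0.35 on the log2 scale. KRT80 passed the low-count filter in DAOY only through the exposed groups. Of the glial markers, SLC1A3 rose in DAOY from 11.3 ± 2.52 TPM at 0 h to 29.7 ± 3.44 TPM at 8 h (log2 fold change 1.76 ± 0.28, edgeR FDR = 0.0115). It was the 1 called of 4 glial markers tested, beside 3.13% of all genes called (1.19% higher), and nothing is read from this count. SOX2 (0.55 ± 0.28), ALDH1L1 (-0.35 ± 0.42) and OLIG2 (-0.46 ± 0.63) were not called, with a list median of 0.10. SLC1A3 made up most of the summed level of the 7 glial markers, which was 36.4 to 41.1 TPM at 8 h and 16.1 to 22.0 TPM at 0 h. AQP4 was at 0.448 ± 0.325 TPM (SD, n = 3) and S100B at a mean of 0.208 TPM at 8 h. The summed level of the 9 epithelial markers was 1.70 to 4.86 TPM at 8 h and 1.91 to 3.06 TPM at 0 h in DAOY, with CDH1 (E-cadherin) at no more than 4.01 counts in a library at either time. CLDN4, a claudin of that list, held 0.131 ± 0.158 TPM at 0 h and 0.880 ± 0.236 TPM at 8 h in DAOY, a log2 fold change of 2.19 ± 0.67 (edgeR FDR = 0.0838). It was the only 1 of the 9 tested in DAOY, with a 0 h level near the floor, so its change is a description. The part of these cells or genes in the KRT80 values was not tested.

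The KRT80 isoforms were assigned less steadily than the gene. In U87 mg, Kallisto gave the short form between 6.40% and 59.1% of the counts of both isoforms, and the highest share, in replicate 2 at 2 h, stood far from the 14.8% and 12.7% of the other replicates there. All 20 counts of the 0 h libraries and all 40 of the 2 h libraries of DAOY went to the long form. At 8 h, replicates 0 and 2 of DAOY had 100% of these counts on the short form and replicate 1 had 0%. The shares in DAOY rest on 3 to 35.3 counts a library and switch between replicates of 1 group, so no isoform difference between conditions is read from them.

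**Figure D2:**
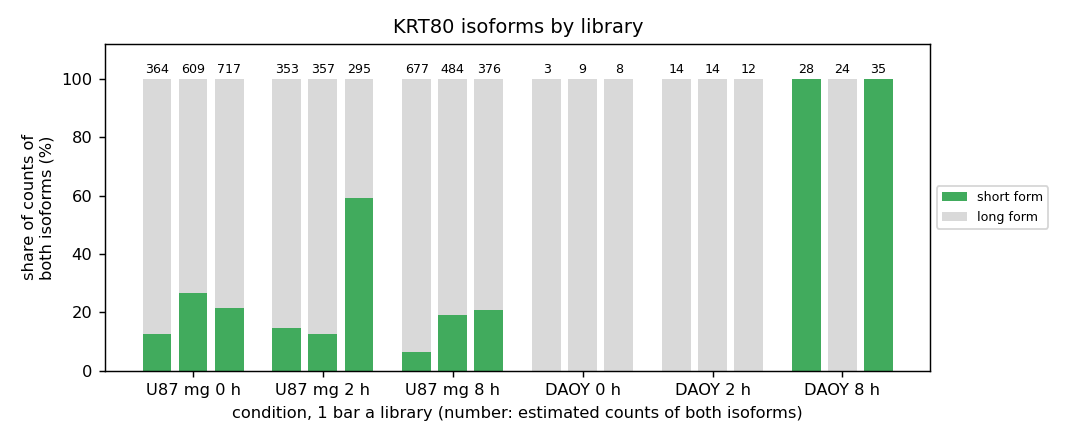
Share of the estimated counts of both coding KRT80 isoforms, in percent (vertical axis), that went to the short form (green) and the long form (grey) in each of the 18 libraries, with the summed counts above each bar. In DAOY at 8 h replicates 0 and 2 are wholly green and replicate 1 wholly grey.

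Genes whose pattern was most like that of KRT80 were sought among 12653 genes with a mean of at least 1 CPM (counts scaled to the library total) in both lines. The measure was Pearson's r of log2(CPM + 1), centred on each line's mean, over 18 libraries that share groups and depth, and it is a description. The 5 highest were PFKFB4 (r = 0.884), an enzyme that sets fructose-2,6-bisphosphate in glycolysis, KLF13 (0.882), a zinc finger transcription factor, WLS (0.876), the carrier of Wnt ligands, KIAA1522 (0.865) and MIR4697HG (0.860). PFKFB4 went from 4.71 ± 0.680 TPM at 0 h to 17.0 ± 2.81 TPM at 8 h in DAOY (SD, n = 3 each), and from 34.1 ± 17.7 to 30.2 ± 11.9 TPM in U87 mg.

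Before the field, KRT8 and LMNB1 were higher in DAOY, and VIM and NES were higher in U87 mg. In DAOY minus U87 mg at 0 h, 7 of the 9 members tested were called at an FDR below 0.05 and at least a 2-fold difference, where 41.2% of all 16482 genes tested were called. Of the 7, 4 were higher and 3 lower in DAOY, beside 23.4% and 17.8% of all genes. The libraries of the same 7 did not overlap between the lines, as for 56.8% of all genes (33.7% higher and 23.1% lower in DAOY). GFAP was not tested because its counts were too low. KRT18 and SYNM passed the filter only through DAOY, where they are high, and KRT80 was chosen from its levels, so these 3 had to differ and nothing about the members is read from the count of 7. The order of the levels in U87 mg at 0 h was VIM, LMNA, LMNB1, KRT80, NES, KRT7, KRT8, GFAP, KRT18 and SYNM, in which the libraries of KRT7 and KRT8, and of KRT8 and GFAP, overlapped. In DAOY it was VIM, LMNA, KRT18, LMNB1, KRT8, SYNM, KRT7, NES, KRT80 and GFAP, in which LMNA overlapped KRT18, KRT18 overlapped LMNB1, SYNM overlapped KRT7, and KRT80 overlapped GFAP.

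**Figure D3:**
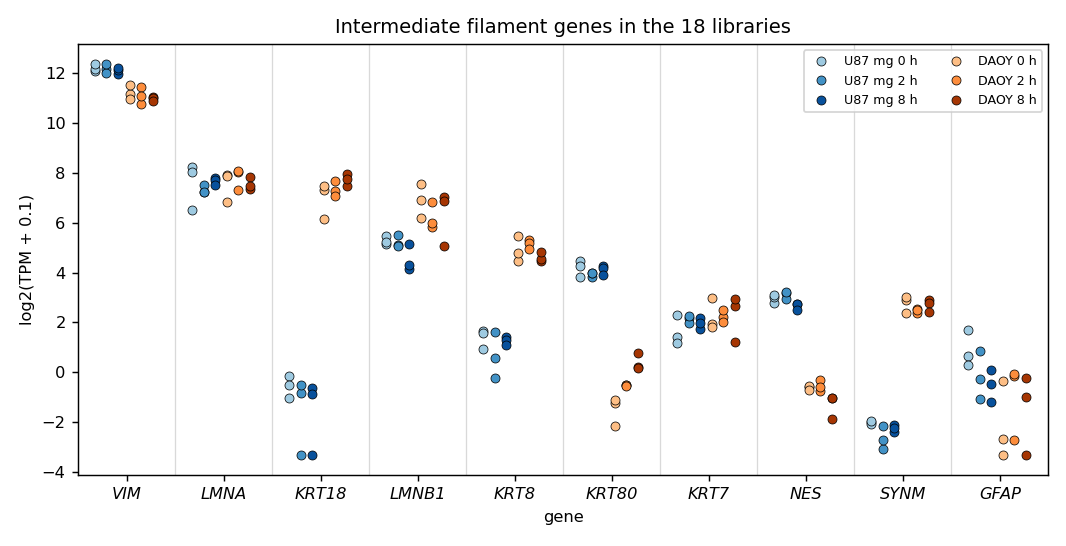
Level of the 10 members as log2(TPM + 0.1) (vertical axis) in all 18 libraries, with genes ordered by mean level, U87 mg in blue and DAOY in orange, darker for longer exposure. VIM is highest in every library, KRT80 and NES are higher in U87 mg, and KRT18, KRT8 and SYNM are higher in DAOY.

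KRT18 and KRT8, the pair of simple epithelia, were the highest of the member keratins in DAOY. KRT18 (chr12:52948871-52952901, plus strand) had 71.4, 159 and 176 TPM in DAOY at 0 h, against 0.386, 0.806 and 0.613 TPM in U87 mg, where the 3 libraries held only 11 counts in all. The ratio of its shares of counts was 399.6, with an exact 95% counting interval of 223 to 801. KRT8 (chr12:52897187-52949954, minus strand) had 22.3, 44.1 and 27.4 TPM in DAOY and 1.84, 3.03 and 2.91 TPM in U87 mg, a fitted log2 fold change of 3.47 ± 0.34 (edgeR FDR = 1.4e-07). The levels of both did not overlap between the lines. The pseudogene KRT8P12 held 46 to 86 counts in U87 mg at 0 h, more than KRT8 itself with 13.0 to 37.7 counts, so the KRT8 counts of U87 mg are uncertain. With pseudogene counts added to KRT8 the log2 fold change between the lines was 1.75 ± 0.22 (edgeR FDR = 2.9e-06). The gene models of KRT8 and KRT18 overlap on opposite strands, and whether the counting used strand is not stated.

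SYNM, a large filament protein that copolymerizes with vimentin, was also a DAOY gene. It lies at chr15:99098217-99135593 (plus strand) and had 5.09, 7.47 and 8.06 TPM in DAOY at 0 h and 0.149, 0.138 and 0.157 TPM in U87 mg. The ratio of its shares of counts was 45.0 (exact 95% counting interval 29.2 to 73.2). LMNB1 (chr5:126776623-126837020, plus strand), a B-type lamin that stays attached to the membrane, had 120.0, 190.2 and 73.9 TPM in DAOY and 35.4, 44.8 and 37.2 TPM in U87 mg. Its log2 fold change was 1.60 ± 0.41 (edgeR FDR = 0.00264), and no DAOY library overlapped U87 mg.

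KRT80, NES and VIM were higher in U87 mg. The KRT80 difference at 0 h was -6.13 ± 0.27 on the log2 scale, which is 70.0-fold lower in DAOY, and is a description. NES (chr1:156668763-156677397, minus strand) had 6.69, 8.07 and 8.54 TPM in U87 mg at 0 h and 0.560, 0.588 and 0.505 TPM in DAOY, a log2 fold change of -3.86 ± 0.24 (edgeR FDR = 4.33e-10). VIM (chr10:17228259-17237593, plus strand) had 4332, 4561 and 5341 TPM in U87 mg and 2267, 2970 and 1977 TPM in DAOY. The log2 fold change of VIM was -1.06 ± 0.18 (edgeR FDR = 7.78e-05), close to the 2-fold limit, and its libraries did not overlap. VIM was under that limit in 5 of 17 alternatives. These were -0.97 with the GC trend removed, and -0.995 and -0.996 with limma on log2(TPM + 1) and log2(TPM + 0.1). The others were -0.93 without DAOY 0 h replicate 2 and -0.87 with the replicate block. Between the lines, the block fit gives the difference at replicate 0, not the mean over replicates. Its value is therefore no check of the reported one.

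GFAP was too scarce for the test, and KRT7 and LMNA were not called. GFAP (chr17:44903161-44916937, minus strand) had 31 counts over the U87 mg libraries at 0 h and 4 over the DAOY libraries, a ratio of shares of 6.11 with an exact 95% counting interval of 2.16 to 23.8. GFAP never exceeded 16 counts in a library of either line. KRT7 (chr12:52232520-52252186, plus strand), another keratin of simple epithelia, differed by -0.28 ± 0.37 (edgeR FDR = 0.533), and 90.4% of its counts lay on transcripts typed as processed transcripts rather than coding ones. LMNA (chr1:156082573-156140089, plus strand), which codes for lamins A and C, differed by -0.20 ± 0.26 (edgeR FDR = 0.519).

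The counts of called genes in the lists that follow stand beside the 23.4% of all genes called higher and 17.8% called lower in DAOY, and nothing particular to a list is read from them. Of 51 further keratins, 9 were tested at 0 h, 2 were higher and 4 lower in DAOY, with a median log2 difference of -1.10 against 0.05 over all genes. KRT17 held 17.6 ± 7.58 TPM in DAOY and 0.335 ± 0.395 TPM in U87 mg, whereas KRT15 had 15.0 ± 7.90 TPM in U87 mg and 0.177 ± 0.307 TPM in DAOY, and KRT34, a hair keratin, 7.81 ± 2.42 and 0.069 ± 0.060 TPM (SD, n = 3 each). The calls on the higher side were KRT17 and KRT3 and those on the lower side KRT15, KRT34, KRT222 and KRT79. KRT17 and KRT3 passed the filter only through DAOY, and KRT15, KRT34 and KRT222 only through U87 mg, so these had to differ. KRT10, the most abundant of them at 0 h, held 33.9 ± 3.79 TPM in U87 mg and 42.5 ± 10.1 TPM in DAOY. Of 9 further filament genes, 5 were tested, with 2 higher and 2 lower in DAOY and a median of -0.51. The neurofilament light chain NEFL stood at 22.0 ± 1.42 TPM in DAOY, against 1 count in all 3 U87 mg libraries together. NEFL and INA, the calls on the higher side, passed the filter only through DAOY. NEFM, called lower, passed it only through U87 mg.

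Several desmosomal genes, whose proteins anchor keratin filaments, had higher levels in DAOY, which is given as a description. Of the 18 linker and desmosome genes, 12 were tested, 6 were higher and 4 lower in DAOY, with a median of 0.54. DSP, JUP, PKP1, PKP2 and DSC2 passed the filter only through DAOY, where they are high, so their calls had to come out higher. DSG2, the other gene called higher, was tested within both lines and differed by 1.16 ± 0.19 (SE, edgeR FDR = 5.39e-05). PKP3 (-0.07 ± 0.56) and PKP4 (-0.37 ± 0.16) were not called. Desmoplakin, DSP, which ties keratins to the desmosome, had 118 ± 26.0 TPM in DAOY and 0.015 ± 0.004 TPM in U87 mg, 19901 against 3 counts at 0 h. Plakoglobin, JUP, had 51.7 ± 16.8 and 0.212 ± 0.104 TPM, and the desmosomal cadherin DSC2 8.03 ± 1.82 and 0.026 ± 0.031 TPM. Plakophilin PKP2 had 172 counts in DAOY and 0 in U87 mg, at least 72.8-fold higher against a floor of 3 counts over the group. The 4 genes lower in DAOY were the cytolinkers PPL, MACF1, DST and PLEC, the first of them at 7.14 ± 3.34 TPM in U87 mg and 0.306 ± 0.278 TPM in DAOY. Of the 9 epithelial markers only 2 were tested, and EPCAM, called lower in DAOY, held 0.450 ± 0.197 TPM there and 1.83 ± 0.252 TPM in U87 mg. EPCAM passed the filter only through U87 mg, where it is higher.

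Of the 17 genes of lamina partners and lamin processing, all were tested, and 5 were higher and 4 lower in DAOY, with a median of 0.51. The lamin B receptor LBR stood at 107 ± 17.9 TPM in DAOY and 48.3 ± 3.00 TPM in U87 mg, and emerin, EMD, at 24.9 ± 11.9 and 58.4 ± 13.8 TPM (SD, n = 3 each).

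In the 2 h comparisons no member was called. In U87 mg, 0 of the 7 members tested were called, against 0% of all 14106 genes, and 0 had an unadjusted p below 0.05 in edgeR or DESeq2. Over all genes 1239 had such a p in edgeR and 1214 in DESeq2, which called 3. KRT18, GFAP and SYNM were not tested in this line. No tested member had 2 h libraries clear of the 0 h libraries, while 15.3% of all genes had. In DAOY, 0 of the 9 members tested were called, against 0% of all 15396 genes, and 1 had an unadjusted p below 0.05 in edgeR and 0 in DESeq2. That 1 was KRT80, whose values are a description. Over all genes 424 had such a p in edgeR and 384 in DESeq2, which called 1. KRT80 was also the only member whose libraries did not overlap there, and 7.46% of all genes did not (3.59% above and 3.88% below).

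At 8 h in U87 mg, 0 of the 7 members tested were called, against 0.638% of all genes, and 1 had an unadjusted p below 0.05 in edgeR and in DESeq2, which also called 0. Such a p was held by 2241 of all 14106 genes in edgeR and by 2034 in DESeq2. The 1 member was LMNB1, at 17.4, 35.4 and 19.6 TPM after 8 h and 35.4, 44.8 and 37.2 TPM at 0 h. The 8 h libraries lay below those at 0 h, with 35.36 TPM as the highest of them and 35.41 TPM as the lowest at 0 h. Its log2 fold change was -0.69 ± 0.19 (edgeR FDR = 0.0936), and it was -0.97 without U87 mg 8 h replicate 1 (FDR = 0.0262). NES likewise had lower levels in all 8 h libraries, 6.51, 6.53 and 5.58 TPM, than in all 0 h libraries, with a log2 fold change of -0.25 ± 0.15 (edgeR FDR = 0.465). These 2 of 7 members had libraries clear of the 0 h group, both below it, as had 16% of all genes (5.8% above and 10.2% below). VIM was at 3997, 4518 and 4729 TPM after 8 h, overlapping those at 0 h, and its fitted log2 difference was -0.03 ± 0.15 (edgeR FDR = 0.962). GFAP had 9, 9 and 1 counts after 8 h and 4, 16 and 11 at 0 h, too few for the test.

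At 8 h in DAOY, 1 of the 9 members tested was called, against 3.13% of all genes (1.19% higher and 1.94% lower), and this was KRT80, from whose call nothing is read because it was chosen with that result in view. The count was 0 without DAOY 8 h replicate 1 or without DAOY 8 h replicate 2, with KRT80 changes between 1.99 and 2.49 over the 6 libraries left out in turn. KRT18 came next. It had 246.5, 178 and 213 TPM after 8 h, above all 0 h libraries (71.4, 159 and 176 TPM) but overlapping the 203, 153 and 136 TPM at 2 h. The log2 fold change of KRT18 was 0.76 ± 0.26 (edgeR FDR = 0.11), and so it was not called. Its partner KRT8 had 21.8, 23.3 and 28.2 TPM after 8 h, overlapping 0 h, with a log2 fold change of -0.17 ± 0.30 (edgeR FDR = 0.799). KRT18 per KRT8 in TPM was accordingly 3.21, 3.59 and 6.41 at 0 h, 5.13, 4.21 and 4.49 at 2 h, and 11.3, 7.66 and 7.55 at 8 h, with no overlap between 8 h and the earlier times.

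**Figure D4:**
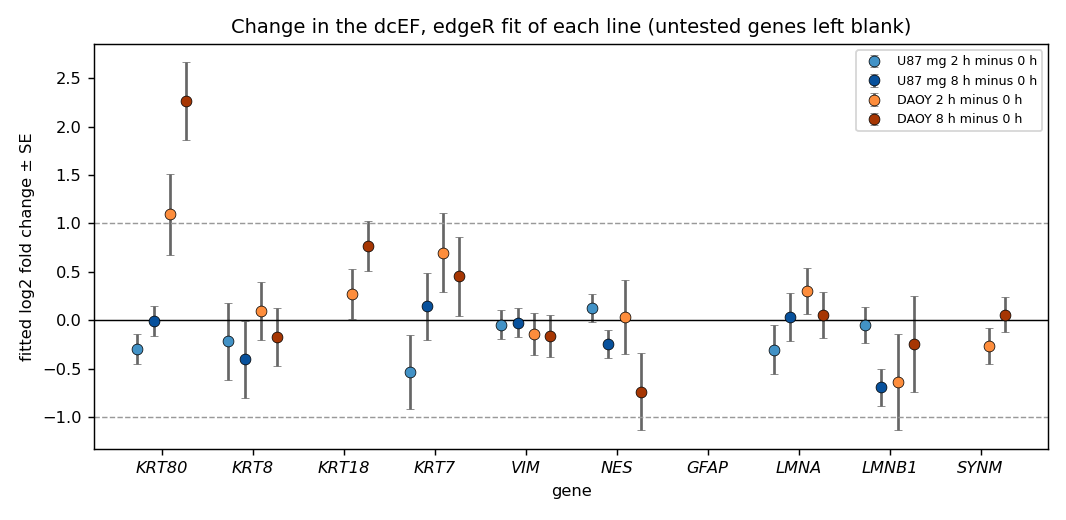
Fitted log2 fold change against 0 h with its SE (vertical axis) for each member tested, by line and time. Dashed lines mark a 2-fold change. KRT80 in DAOY, at 1.09 and 2.26, lies above the upper line, and all other values lie between the dashed lines.

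NES in DAOY had 0.394, 0.388 and 0.171 TPM after 8 h, from 15, 13 and 6 counts, below all 0 h libraries, with a log2 fold change of -0.74 ± 0.40 (edgeR FDR = 0.303). VIM, KRT7, LMNA, LMNB1 and SYNM had 8 h libraries that overlapped those at 0 h, with log2 fold changes between -0.24 and 0.45 and edgeR FDR between 0.572 and 0.927. In all, 3 of the 9 tested members did not overlap, KRT80 and KRT18 above and NES below, where 23.9% of all genes did not (8.86% above and 15% below). The VIM level in DAOY was 2133, 2079 and 1882 TPM after 8 h.

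In the difference of the 8 h changes between the lines, 1 of the 9 members tested was past an FDR of 0.05, as were 0.0121% of all genes. That member was KRT80, which was chosen with this contrast in view, so its value of 2.27 is a description and nothing is read from the count. With each of the 12 libraries left out in turn it ranged from 2.02 to 2.46, and the count was 1 without U87 mg 0 h replicate 0, U87 mg 8 h replicate 0 or DAOY 8 h replicate 0 and 0 without any of the other 9. For the other 8 members the difference lay between -0.49 (NES) and 1.11 (KRT18, SE 0.92), with edgeR FDR of at least 0.764.

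Among the listed partners, edgeR called 0 further keratins, filament, linker, lamina or epithelial genes in any of the 4 exposure comparisons. Calls over all genes were 0% and 0.638% in U87 mg and 0% and 3.13% in DAOY, at 2 h and 8 h. Of 150 tests of these partners, 18 had an unadjusted p below 0.05 in edgeR. So had 1239 and 2241 of all 14106 genes in U87 mg at these times, and 424 and 3502 of 15396 in DAOY. Nothing particular to the lists is read from these counts. In DAOY at 8 h the list medians were 0.03 for keratins, 0.42 for other filament genes, 0.46 for linkers and desmosome and 0.17 for lamina genes, beside -0.01 for all genes. NEFL was at 13.2 ± 1.40 TPM after 8 h in DAOY beside 22.0 ± 1.42 TPM at 0 h, and its fitted log2 difference was -0.71 ± 0.15 (edgeR FDR = 0.0246), under the 2-fold limit. SUN1, an inner nuclear membrane protein that binds lamin A and was singled out after its values were seen, was at 90.9 ± 6.15 TPM after 8 h and 59.8 ± 10.4 TPM at 0 h in DAOY, a log2 difference of 0.85 ± 0.16 (edgeR FDR = 0.0185). KRT17 varied between replicates, and in DAOY at 8 h had 39.7 ± 41.7 TPM (log2 fold change 1.16 ± 0.67, edgeR FDR = 0.341).

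LMNA varied widely between replicates in both lines. At 0 h it had 91.1, 301 and 260.2 TPM in U87 mg and 114, 244 and 233 TPM in DAOY, so that replicate 0 was the lowest in each. The other conditions had 149 to 220.4 TPM in U87 mg and 161 to 273 TPM in DAOY. LMNA is the member with the highest GC content, 61.5% over its transcripts, and LMNB1 the lowest, 45.9%. The median log2 CPM of high-GC genes minus that of low-GC genes, against the line mean, was -0.355 in U87 mg 0 h replicate 0 and -0.84 in DAOY 0 h replicate 0, and 0.023 to 0.484 in the other 0 h libraries. With each library's GC trend removed, an alternative chosen after the data were seen, the SE of the LMNA change at 8 h in DAOY went from 0.24 to 0.17. That of KRT18 went from 0.26 to 0.14, with a change of 0.73 (edgeR FDR = 0.00996) that stayed under the 2-fold limit. The change of KRT80 in DAOY at 8 h was 2.26 in that fit.

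**Figure D5:**
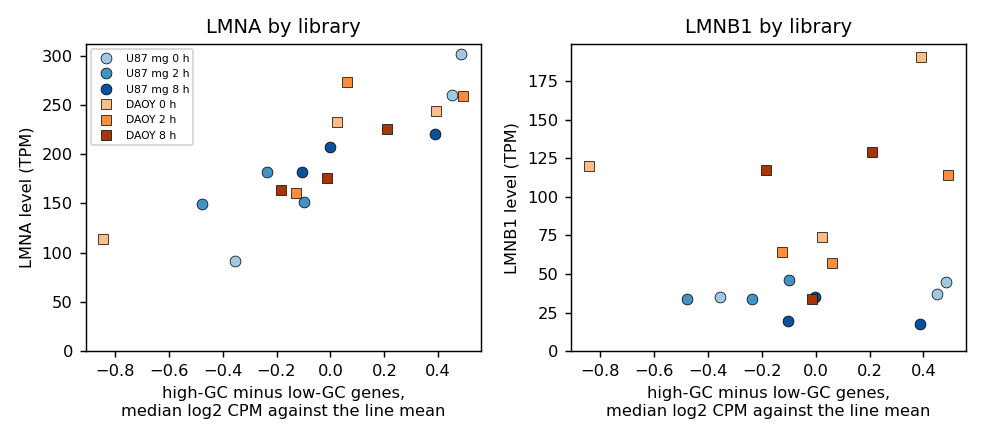
Level of LMNA and LMNB1 in TPM (vertical axes, from 0) against the GC measure of each library, in log2 units (horizontal axes), for U87 mg (circles) and DAOY (squares). The DAOY library furthest left, at -0.842, has the lowest LMNA level of its line, 114 TPM, while the lowest of U87 mg, 91.1 TPM, lies at -0.355 and the U87 mg library furthest left, at -0.476, has 149 TPM.

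The lamins also differed in which transcripts took their counts. The transcript with the coding sequence of lamin A took 42.2% to 73.8% of LMNA counts. LMNB1 counts were split between its main coding transcript, with 39.1% to 62.0%, and a transcript typed as processed, with 34.7% to 57.2%. LMNA per LMNB1 in TPM ranged from 2.57 to 12.7 in U87 mg and from 0.948 to 5.20 in DAOY, where the 3 conditions of DAOY overlapped. In U87 mg the 8 h ratios, 12.7, 5.87 and 9.26, lay above the 2 h ratios of 3.29, 5.35 and 4.43 and overlapped those at 0 h.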

How the data were processed

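The 18 libraries were made from poly-A RNA with a kit that keeps strand, and read from one end. The authors trimmed reads, ran Kallisto 0.43.0 on the GENCODE 24 transcripts (GRCh38.p5 in the submitters' processing notes) and deposited, for each transcript in each library, its estimated count and its TPM. The deposited p-value, q-value and fold change columns of the authors' Sleuth 0.28.1 comparisons, the last a score on a log scale of unstated base, were not used. Both measures were summed by gene name, and summed counts were rounded. In edgeR 4.0.16 (R 4.3.3), genes passed filterByExpr, libraries were scaled by TMM, and glmQLFit and glmQLFTest were run on the 9 libraries of each line, or all 18 for the comparison of the lines and of their 8 h changes. Calls needed an FDR (Benjamini-Hochberg, all genes tested) below 0.05 and at least a 2-fold difference, or the FDR alone for the difference of changes. Kallisto's division of reads between isoforms, pseudogenes and overlapping genes can move counts between them. Totals of 8341976 to 15610886 counts per library, with a floor of 3 counts, limit low genes, and counting intervals cover counting error only.

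The members, the lists of other genes and the rule for naming were chosen with earlier results of these data known. The rule named all members, list genes called or at 1 CPM or more in all replicates of a condition (at most 4 a list and comparison), and the 5 genes most like KRT80. PPL, SUN1 and LBR were named after their values were seen. The authors' methods state that 4 biological replicates a condition, and 3 for DAOY at 8 h, were prepared and the 3 of best quality kept, and give other cell numbers for making the aggregates than the labels. GENCODE 29 gave the coordinates of the members. By identifier, 99.2% of transcripts matched its sequences, and GC content was known for 99.9% of genes tested. Alternatives were DESeq2 1.42.0, RLE factors, limma 3.58.1 with a pseudocount of 1 or 0.1 on log2 TPM, a filter of 10 counts in all libraries or none, a replicate block, other sets of samples, coding transcripts alone, pseudogene counts added, each replicate left out and, chosen after the data were seen, a GC correction. Scripts were tested on simulated counts.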

Additional observations from a re-analysis of the deposited data

Results flagged for a closer look

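The 8 h change of KRT80 in DAOY minus that in U87 mg was 2.27 on the log2 scale, and it is listed because the fit over all 18 libraries put this difference between the lines past an FDR of 0.05. The levels behind it went from 0.271 ± 0.130 to 1.25 ± 0.333 TPM in DAOY and from 18.3 ± 4.03 to 17.3 ± 2.17 TPM in U87 mg (SD, n = 3 each). KRT80 was chosen with this pattern known, so the value is a description and the fit is no independent test of it. Groups of 3 libraries are too small for a test of single outlying samples, and none was made.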

How the results depend on the processing

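Values below are log2 differences or counts of members called. For DAOY at 8 h the count of members called was 1 and became 0 with limma on log2(TPM + 1) and with at least 10 counts in every sample, where KRT80 was no longer tested, and it was 0 to 1 with each library left out in turn. Between the lines 7 were called, 2 with at least 10 counts in every sample, which leaves few members to test, and 7 to 8 with a library left out. For the difference of the 8 h changes the count fell from 1 to 0 with limma on log2(TPM + 1) or log2(TPM + 0.1), with at least 10 counts in every sample, with the replicate block and with only the samples compared, and was 0 to 1 with a library left out. Except for the filter, the cause was not tested. Over all genes the calls, by alternative, were 0 to 71 for U87 mg at 2 h (0 as reported), 0 to 233 at 8 h (90), 0 to 18 for DAOY at 2 h (0), 31 to 732 at 8 h (482), 3289 to 8017 between the lines (6786) and 0 to 158 for the difference of changes (2). DAOY at 8 h had 31 calls without its replicate 1 at 8 h and 75 without replicate 2.

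Member values that changed sign were not called in either setting. Without the GC trend, an alternative chosen after the data were seen, they were KRT80 in U87 mg at 8 h (0.052), KRT8 in DAOY (-0.008) and U87 mg (0.064) at 2 h, LMNA between lines (0.098), in DAOY at 8 h (-0.02), in U87 mg at 2 h (0.075) and in the difference of changes (-0.193), NES in DAOY at 2 h (-0.161), and VIM in U87 mg at 2 h (0.148) and 8 h (0.026). On log2(TPM + 1), limma gave KRT7 as -0.212 in the difference of changes, 0.487 between lines, -0.01 in DAOY and 0.399 in U87 mg at 2 h, and in the difference of changes KRT8 as -0.198, LMNA -0.07, NES 0.04 and SYNM -0.025, with SYNM in DAOY at 8 h at -0.071. On log2(TPM + 0.1) it gave KRT7 as -0.303, 0.604 and, in U87 mg at 2 h, 0.512, KRT8 as -0.18, LMNA -0.071 and SYNM in DAOY at 8 h -0.078. At least 10 counts in every sample gave LMNA in U87 mg at 8 h as -0.012. Coding transcripts alone gave KRT18 in the difference of changes as -0.198 and LMNB1 in U87 mg at 2 h as 0.191, and added pseudogene counts gave KRT8 in U87 mg at 2 h as 0.068.

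With each library left out in turn, signs changed within these ranges. In U87 mg at 2 h KRT8 was -0.672 to 0.019, VIM -0.138 to 0.037 and LMNB1 -0.134 to 0.016. At 8 h KRT80 was -0.148 to 0.111, KRT7 -0.073 to 0.312, VIM -0.108 to 0.029 and LMNA -0.271 to 0.32. In DAOY at 2 h KRT8 was -0.197 to 0.35, VIM -0.332 to 0.027 and NES -0.103 to 0.156. At 8 h KRT8 was -0.465 to 0.102, LMNA -0.181 to 0.293, LMNB1 -0.545 to 0.165 and SYNM -0.071 to 0.155. LMNA between lines was -0.5 to 0.062, and in the difference of changes KRT8 was -0.038 to 0.504, KRT7 -0.026 to 0.619 and LMNA -0.268 to 0.323.

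The replicate numbers are shared by the groups, but no label ties them to a batch. With group means removed, same-numbered libraries of a line correlated between -0.18 and 0.396, with medians of 0.058 in DAOY and 0.118 in U87 mg. Differently numbered libraries of different groups correlated between -0.263 and 0.408, with medians of -0.144 in DAOY and -0.031 in U87 mg. Of 18 libraries, 8 correlated best with one of their own number. With the replicate block the members called were 0, 0, 0, 1, 6 and 0, and VIM between lines was -0.87. The 6 and the -0.87 are for the lines at replicate 0, not the mean over replicates, so they are no check of the reported values. In the block fit KRT80 in U87 mg at 8 h was 0.002, and LMNA and KRT80 in the difference of changes were -0.02 and 2.27. Low depth limits KRT80 in DAOY, GFAP, and KRT18 and SYNM in U87 mg.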
